A study of Rattus norvegicus with 10 samples.

Results

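The Notch pathway was examined through 9 genes: the receptors Notch1, Notch2 and Notch3, the ligands Jag1 and Dll1, the targets Hes1 and Hey1, the nuclear coactivator Maml1 and the inhibitor Numb. Members were the probe sets whose only gene symbol in the platform annotation was one of these names. This found 9 probe sets for 8 of the 9 genes, among 15866 probe sets that are not controls and 10411 named genes. Notch1 had a pair of probe sets, the other genes had 1 each, and none carried the name Hey1, so Hey1 has no value here. Levels are log2 of the MAS5 signal, a brightness in arbitrary units that belongs to its own probe set, so levels of different genes were not set against each other.

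RNA was taken at postnatal day 21 from whole mammary glands, the donors being female SD rats. One diet was AIN-93G, a purified rodent diet, with casein as its protein, and the other was AIN-93G with soy protein isolate, each given from gestation day 4 until weaning. There were 5 arrays of each diet, named below by diet and label number. The labels mention RNA pools and replicate targets, so an array may not be a separate animal, and the errors given may be partly technical.

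Notch signalling passes between touching cells. A Jagged or Delta-like ligand on one cell binds a Notch receptor on the next, the receptor is cut by an ADAM protease and by gamma-secretase, and its inner part enters the nucleus, where it joins the DNA-binding protein Rbpj and a Mastermind coactivator such as Maml1 to switch on Hes and Hey repressors. In the mammary gland the pathway is known for its part in luminal cell fate, and Notch3 is also known from the smooth muscle and pericytes of blood vessels.

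Rbpj binds DNA at sites with the core letters GTGGGAA, and the start regions of 2 members held these letters. They are shown because Hes1 is the textbook target of the pathway and the other match lies at one of its ligands. Each runs 5′ to 3′ from 250 bases before the RefSeq start to 50 bases after it, in the rat build GRCr8, with the core in capitals.
Hes1, chr11:84212996-84213295, minus strand: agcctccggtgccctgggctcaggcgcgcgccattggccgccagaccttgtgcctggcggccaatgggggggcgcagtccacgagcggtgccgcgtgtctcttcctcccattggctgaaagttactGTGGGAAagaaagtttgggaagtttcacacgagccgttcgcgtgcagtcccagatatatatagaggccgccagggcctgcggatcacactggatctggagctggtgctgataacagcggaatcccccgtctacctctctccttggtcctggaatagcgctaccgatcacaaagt
Dll1, chr1:64993225-64993524, minus strand: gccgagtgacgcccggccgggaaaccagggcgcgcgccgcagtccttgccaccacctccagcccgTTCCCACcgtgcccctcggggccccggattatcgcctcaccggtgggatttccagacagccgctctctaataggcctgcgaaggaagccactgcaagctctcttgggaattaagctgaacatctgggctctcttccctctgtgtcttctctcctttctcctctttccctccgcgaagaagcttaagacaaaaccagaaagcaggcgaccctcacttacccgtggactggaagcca
The core begins 124 bases before the start in Hes1, on the strand of the gene. In Dll1 it begins 185 bases before the start and lies on the other strand, as TTCCCAC. Promoters were found for 8 of the 9 members, and the regions of the other 6 held neither form. Of 33469 rat promoters of the same 300 bases, 6.3% held the core on either strand, and no other motif was searched. A match is a run of letters, and no binding was measured.

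The question was whether Notch genes differed between the glands of soy-fed and casein-fed rats. None of the 9 probe sets passed the test. At the brightest probe set of each gene, 6 of 8 genes had a higher and 2 a lower mean in soy, with a median log2 difference of 0.02, against 53.8% higher and a median of 0.02 over all probe sets. The median size of the difference without its sign was 0.13 for the 8 genes and 0.14 over all probe sets. In limma, with Benjamini-Hochberg adjustment over 15866 probe sets, 0 members and 0% of all probe sets had an adjusted p under 0.05, and the smallest adjusted p of any probe set was 0.233. At an unadjusted p under 0.05 there were 0 members and 843 probe sets in all (5.31%), 510 higher and 333 lower in soy. The diets overlapped in every member, while they did not overlap in 0.996% of all probe sets. In whole-gland RNA, fewer cells of a type and less RNA per cell cannot be told apart.

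**Figure D1:**
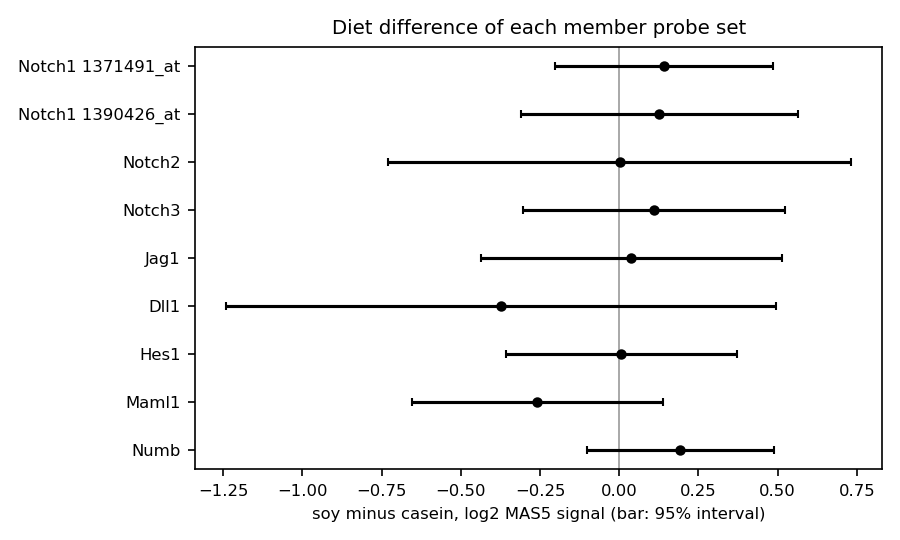
Difference between diets (soy minus casein, log2 MAS5 signal) for each of the 9 member probe sets, as a point with its 95% interval from limma. Every interval includes 0, and the widest belong to Dll1 and Notch2, whose signals were dim.

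The arrays differed in cell type markers within each diet. The mean log2 signal of 11 luminal epithelial markers ran from 6.21 to 9.60 in casein and from 5.86 to 9.07 in soy, and that of 7 basal markers from 6.77 to 9.10 and from 6.74 to 9.38. Skeletal muscle markers (14 genes) had means from 11.80 to 13.11 in casein 6, soy 147, soy 149 and soy 157. In the other 6 arrays their means ran from 5.86 to 7.73. Myh4, a fast myosin, ran in those 6 from 0.85 in soy 159 to 6.7 in casein 7. Myh1, another myosin of the list, did not follow and stayed between 10.59 and 11.18 in every array. Lymphocyte markers (11 genes) were at 6.19 in casein 6 and 6.23 in soy 149, and from 8.82 to 9.71 elsewhere. Cd28 did not follow, being highest of all arrays in soy 149 (6.82) and at 6.188 in casein 6. Cxcr5 in soy 149 (7.61) lay inside the range of the other arrays. Endothelial markers (8 genes) stayed between 9.39 and 9.80, smooth muscle and pericyte markers (9 genes) between 9.31 and 9.91, and fibroblast markers (8 genes) between 12.38 and 12.82. Adipocyte markers (7 genes) ran from 10.35 to 11.49. Schwann cell markers (7 genes) were at 10.55 in soy 149 and from 9.06 to 9.89 in the other arrays, with means of 9.40 in casein and 9.78 in soy. Most luminal genes were low in the arrays at the bottom of the luminal range, but not all. Muc1 and Cldn3 in soy 159, at 7.145 and 6.92, lay inside the range of the other arrays. Epcam in casein 6 was at 7.67, higher than in soy 159. In soy 159 Epcam was at 4.53, Cdh1 at 3.10, Cldn4 at 3.32 and Cldn7 at 2.85, and in casein 6 Krt18 was at 4.49, Cldn4 at 3.82 and Cldn7 at 3.96, while Elf3 and Prom1 lay between 7.62 and 9.01 in every array. Whether luminal RNA was above background in those arrays cannot be said without detection calls. The log2 ratio of the 3′ to the 5′ actin control, a sign of RNA integrity, averaged 0.457 ± 0.140 (SD, n = 5) for the casein arrays and 0.568 ± 0.065 (SD, n = 5) for the soy arrays (two-sided exact permutation p = 0.151).

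Notch1, a receptor with broad expression that includes luminal cells, was highest in 1 soy array at both of its probe sets. At the first (1371491_at) the log2 signal in casein 6, 7, 10, 18 and 20 was 8.75, 9.16, 9.35, 9.12 and 9.05. In soy 147, 149, 155, 157 and 159 it was 9.69, 9.06, 9.12, 9.35 and 8.90. Soy 147 stood above every other array, casein 6 below, and 3 soy arrays lay inside the casein range. The casein mean was 9.08 ± 0.22 (SD, n = 5) and the soy mean 9.22 ± 0.31 (SD, n = 5), a log2 difference of 0.14 ± 0.16 (SE) with a 95% interval of -0.20 to 0.49 (limma, adjusted p = 0.924). Without soy 147 the difference was 0.02.

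The second Notch1 probe set (1390426_at) gave 8.21, 8.81, 8.76, 8.65 and 8.70 in the casein arrays in the same order. The soy arrays gave 9.45, 8.78, 8.38, 8.71 and 8.43. Its highest and lowest arrays were again soy 147 and casein 6. The log2 difference was 0.13 ± 0.20 (SE), with an interval of -0.31 to 0.56 (limma, adjusted p = 0.951), and it was -0.05 without soy 147 and 0.02 without casein 6. Soy 147 also had the highest basal marker mean, 9.38, and the luminal mean of 9.07 that only casein 7 exceeded. Casein 6 had low means of 6.77 and 6.21. Soy 159 had lower ones still, 6.74 and 5.86, but higher Notch1 values than casein 6, at 8.90 and 8.43. The basal list was mixed. Oxtr went against its mean, at 5.29 in soy 147, 8.26 in casein 6 and 7.50 in soy 159. Cdh3 stayed between 7.80 and 8.51 and Itgb4 between 9.10 and 10.32 in all arrays. Casein 7, with the highest luminal mean of 9.60, had Notch1 at 9.16 and 8.81. With the luminal mean as a covariate the Notch1 differences were 0.20 and 0.19, and with the muscle and lymphocyte means -0.02 and -0.01. They were 0.23 and 0.23 with the actin ratio as a covariate, and 0.03 and 0.01 with array weights. Without the 4 muscle-rich arrays, a setting added after the data were seen, they were -0.16 and -0.32 (limma, unadjusted p = 0.0193 and adjusted p = 0.606 for the second). In that setting 1235 of all 15866 probe sets were under 0.05 unadjusted, against 843 in the main fit. The part of these cell types in the Notch1 values was otherwise not tested.

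Notch2, the close relative of Notch1, was dim. Its mean of 6.50 lay at a percentile of 26.3 among all probe sets, and no detection call was used here to set it against background. The casein arrays gave 6.97, 6.94, 6.95, 6.33 and 5.32, and the soy arrays 6.46, 6.61, 5.90, 6.85 and 6.69. All 5 soy arrays lay inside the casein range, which casein 20 widened at the low end. The casein mean was 6.50 ± 0.71 (SD, n = 5) and the soy mean 6.50 ± 0.37 (SD, n = 5), and the interval of the difference ran from -0.73 to 0.73 (limma, adjusted p = 1.0). The difference was -0.29 without casein 20 and 0.46 with the actin ratio as a covariate (limma, unadjusted p = 0.122, adjusted p = 0.922).

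Notch3, the receptor known from luminal progenitors and from vessel walls, was highest in the 4 arrays with the most skeletal muscle signal, 3 of soy and 1 of casein. Casein arrays gave 9.28, 9.02, 8.79, 8.48 and 8.65, and soy arrays 9.07, 9.31, 8.50, 9.17 and 8.70. The highest arrays, from 9.07 to 9.31, were soy 149, casein 6, soy 157 and soy 147, whose skeletal muscle means were 12.70, 13.11, 12.65 and 11.80. The other 6 arrays ran from 8.48 to 9.02, so the step between these sets was small. The casein mean was 8.84 ± 0.32 (SD, n = 5) and the soy mean 8.95 ± 0.34 (SD, n = 5), a log2 difference of 0.11 ± 0.19 (SE) with an interval of -0.30 to 0.52 (limma, adjusted p = 0.953). The difference was -0.07 with the muscle and lymphocyte means as covariates and -0.13 without those 4 arrays. It was 0.32 with the actin ratio as a covariate and 0.02 without either casein 18 or soy 149. Smooth muscle and pericyte means in the 4 arrays were 9.73, 9.58, 9.91 and 9.61, against 9.31 to 9.81 in the others. That list holds Des, which skeletal muscle also expresses, and without it the 4 means were 9.60, 9.28, 9.78 and 9.56, against 9.37 to 9.95. The list was mixed in casein 6, where Cnn1 and Tagln were lowest of all arrays (6.945 and 8.675) and Rgs5 was highest (9.945). Whether vessel wall cells bear on the Notch3 values was not tested.

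**Figure D2:**
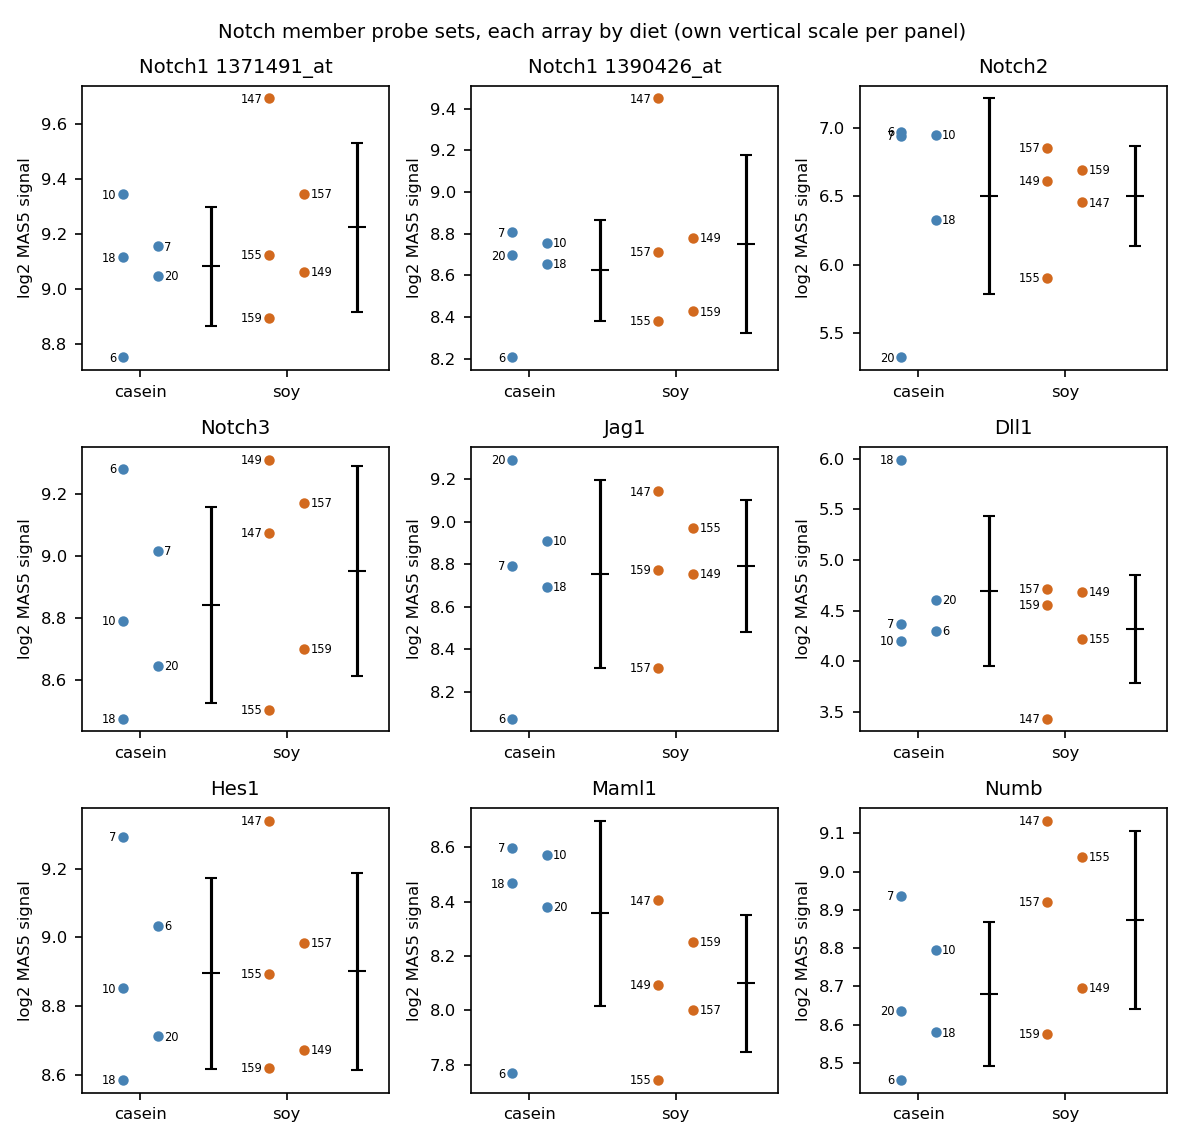
Log2 MAS5 signal of each member probe set in the 5 casein and 5 soy arrays, 1 point per array with its label number, and beside them the mean with a bar of 1 SD. Each panel has its own vertical scale; the diets overlap in all 9 panels, soy 147 is highest for Notch1, Hes1 and Numb, and casein 18 stands apart at 5.99 for Dll1.

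Among the ligands, Jag1, which signals to Notch receptors on neighbouring cells, gave 8.07, 8.79, 8.91, 8.69 and 9.29 in casein and 9.14, 8.75, 8.97, 8.31 and 8.77 in soy. The highest and the lowest array were both casein, casein 20 and casein 6, and every soy array lay between them. The casein mean of 8.75 ± 0.44 (SD, n = 5) and the soy mean of 8.79 ± 0.31 (SD, n = 5) gave a log2 difference of 0.04 ± 0.22 (SE), with an interval of -0.44 to 0.51 (limma, adjusted p = 0.993). The sign turned to -0.13 without casein 6, to -0.05 without soy 147 and to -0.01 without soy 155, so no direction can be given.

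Dll1, a Delta-like ligand, was dim, with a mean of 4.51 at a percentile of 9.8 among all probe sets. Its linear signal ran only from 10.8 to 26.3 in 9 arrays and reached 63.6 in casein 18. On the log2 scale the casein arrays gave 4.30, 4.37, 4.20, 5.99 and 4.60 and the soy arrays 3.43, 4.68, 4.22, 4.72 and 4.55. The log2 difference of -0.37 ± 0.40 (SE) had an interval of -1.24 to 0.50 (limma, adjusted p = 0.918). It was -0.05 without casein 18 and -0.15 without soy 147, -0.16 with the muscle and lymphocyte means as covariates, -0.56 without both casein 6 and soy 149, and -0.70 with the actin ratio as a covariate.

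Hes1, a repressor that Notch switches on directly, had the same mean in both diets to within 0.01. The casein arrays gave 9.03, 9.29, 8.85, 8.59 and 8.71 and the soy arrays 9.34, 8.67, 8.89, 8.98 and 8.62. Casein 7 and soy 147, the arrays with the highest luminal means, were also the highest for Hes1, but the other arrays did not follow. Casein 6 came next for Hes1, at 9.03, with a luminal mean of only 6.21. Casein 18 was lowest, at 8.59, with a luminal mean of 8.80. Soy 159, with the lowest luminal mean, was above casein 18. The casein mean was 8.90 ± 0.28 (SD, n = 5) and the soy mean 8.90 ± 0.29 (SD, n = 5), with a log2 difference of 0.01 ± 0.17 (SE) and an interval of -0.36 to 0.37 (limma, adjusted p = 1.0). Leaving out 1 array gave -0.10 to 0.11, and a difference anywhere inside the interval is not excluded.

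Maml1, the coactivator that completes the nuclear complex, had the second smallest p-value among the members, after Numb, from which it differed only past the third digit. Casein arrays gave 7.77, 8.60, 8.57, 8.47 and 8.38, and soy arrays 8.40, 8.09, 7.74, 8.00 and 8.25. In casein 4 of 5 arrays lay between 8.38 and 8.60, where soy had only soy 147, while casein 6 lay with the lowest soy array. The casein mean was 8.36 ± 0.34 (SD, n = 5) and the soy mean 8.10 ± 0.25 (SD, n = 5), a log2 difference of -0.26 ± 0.18 (SE) with an interval of -0.65 to 0.14 (limma, unadjusted p = 0.180, adjusted p = 0.877). Soy was below the casein mean in 4 of 5 arrays. The sign held in all 21 alternatives, from -0.51 without the 4 muscle-rich arrays to -0.17 without soy 155, and it was -0.41 without casein 6. The unadjusted p from limma was under 0.05 in 4 of them, at 0.0166 without casein 6, 0.0169 without the muscle-rich arrays, 0.0256 without both casein 6 and soy 149 and 0.0475 with array weights. In the same order, 1266, 1235, 1167 and 1139 of all 15866 probe sets were under 0.05 unadjusted, against 843 in the main fit. All of these settings but array weights left out casein 6. The smallest adjusted p among these alternatives was 0.606.

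Numb, which inhibits Notch by sending the receptor to endocytic breakdown, had a mean difference that did not pass the test. The casein arrays gave 8.46, 8.94, 8.79, 8.58 and 8.64 and the soy arrays 9.13, 8.70, 9.04, 8.92 and 8.57. Soy 147 and soy 155 lay above every casein array, and soy 159 lay below the casein mean. The casein mean was 8.68 ± 0.19 (SD, n = 5) and the soy mean 8.87 ± 0.23 (SD, n = 5), a log2 difference of 0.19 ± 0.13 (SE), or 1.14-fold, with an interval of -0.10 to 0.49 (limma, unadjusted p = 0.180, adjusted p = 0.877). The sign held in all 21 alternatives, from 0.07 to 0.27. It was 0.07 both without the muscle-rich arrays and with the muscle and lymphocyte means as covariates, and 0.25 with the luminal mean as a covariate (limma, unadjusted p = 0.0211, adjusted p = 0.810). With the luminal covariate, 937 of all 15866 probe sets were under 0.05 unadjusted, against 843 in the main fit.

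Across arrays the members did not move as a block. Soy 147 was the highest array for 4 of the 9 probe sets (both of Notch1, Hes1 and Numb) and the lowest for Dll1. Casein 6 was the lowest for 4 (both of Notch1, Jag1 and Numb) and the highest for Notch2. Over all probe sets soy 147 was highest in 8.9% and casein 6 lowest in 16.7%. Over the 10 arrays the range of log2 signal was 0.68 for Numb, 0.75 for Hes1, 0.84 for Notch3 and 0.85 for Maml1. It was 1.65 for Notch2 and 2.56 for Dll1, the dim members.

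**Figure D3:**
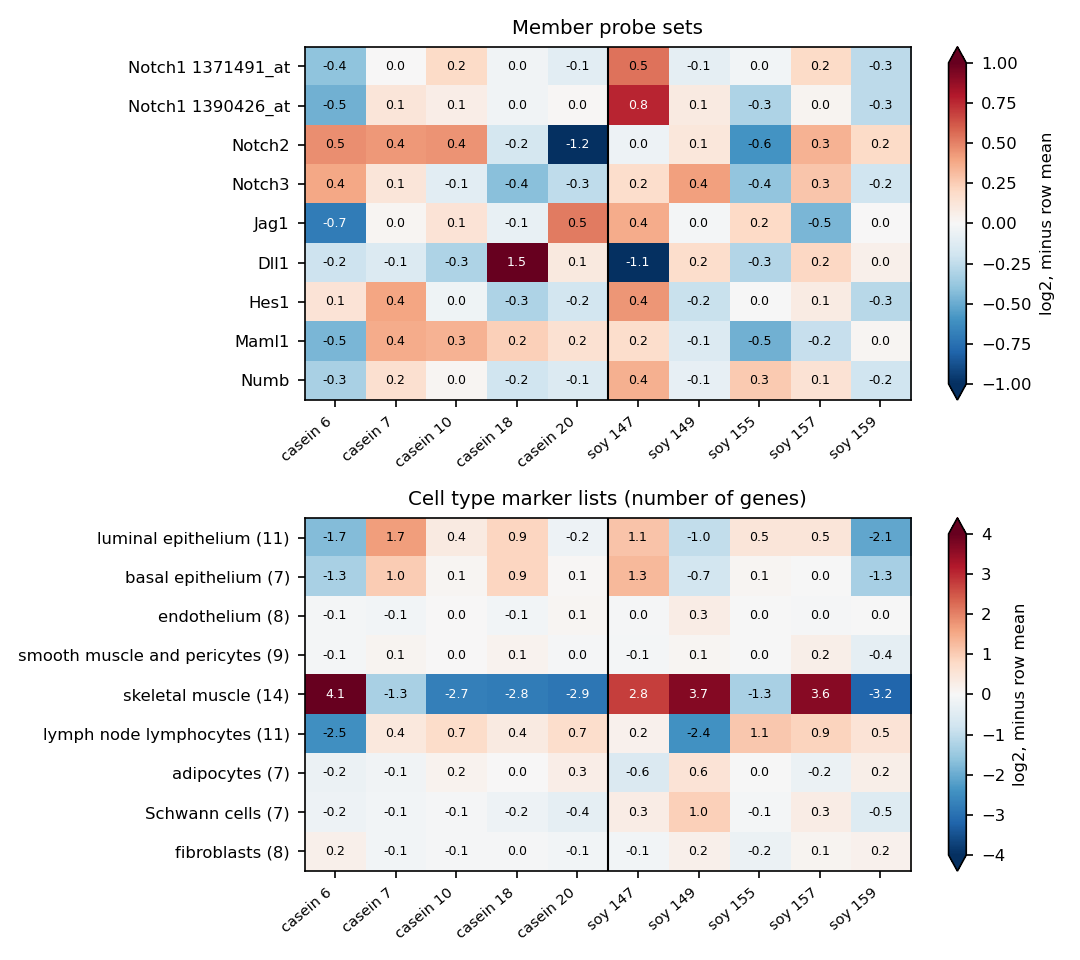
Log2 signal minus the row's own mean over the 10 arrays, for the 9 member probe sets (upper panel, colour limits of 1) and the mean of each cell type marker list (lower panel, colour limits of 4, number of genes in brackets); the line parts casein from soy. Notch3 is highest in the 4 arrays with high skeletal muscle signal, and casein 6 is low for Notch1, Jag1, Maml1 and Numb.

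The genes with the array pattern most like each member were found by Pearson's r over the 10 arrays, among probe sets of at least the 40th percentile in mean signal. They were chosen as the highest r of all, and arrays share their tissue makeup, so r is a description. For Notch1 they were Rnf149 (r = 0.919) and Cux1 (r = 0.911), which was at 9.06 in soy 147 against at most 7.81 elsewhere. Notch3 was most like Sfxn4 (r = 0.936) and Sec63 (r = 0.932), and Jag1 like Ubap1 (r = 0.933, but a Spearman rho of 0.612) and Trappc10 (r = 0.917). For Hes1 they were Prrc2b (r = 0.923) and Spry1 (r = 0.900), the latter an inhibitor of growth factor signalling. Maml1 was most like Pdcd10 (r = 0.945) and the cohesin subunit Rad21 (r = 0.942). Numb was most like Ldlrad3 (r = 0.931) and Bmp2 (r = 0.930), a secreted growth factor of the BMP family.

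The rest of the pathway was taken from a list of 51 further genes, of which 34 had a probe set. At their brightest probe set 21 (61.8%) had a higher and 13 a lower mean in soy, with a median log2 difference of 0.03, against 53.8% higher and a median of 0.02 over all probe sets. None passed the adjusted test. At an unadjusted p under 0.05 there was 1 gene (2.94%), against 5.31% of all probe sets, and the diets overlapped in all 34, against 0.996% of all probe sets where they did not. By role, 8 of 12 processing genes, 2 of 7 nuclear genes, 6 of 8 targets, 2 of 3 ligands and 2 of 3 inhibitors had a higher mean in soy, as did Notch4, the only receptor in this list with a probe set. The gene with the unadjusted p under 0.05 was Cir1, a corepressor that binds Rbpj, with a log2 difference of 0.25 ± 0.11 (SE) and an adjusted p of 0.862 in limma.

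The next smallest p-values were those of Hes3, Notch4, Dtx1, Dll3 and Jag2. Hes3, a Hes family repressor, and Dll3, a divergent Delta-like protein, had log2 differences of 0.86 ± 0.40 (SE) and 0.72 ± 0.45 (SE), but their casein means of 2.40 and 3.27 were far below the 40th percentile of 7.47. Notch4, a receptor best known from endothelium, was at 0.38 ± 0.21 (SE) at its brightest probe set and at -0.73 at its other one. Its means at the brightest probe set, 6.76 in casein and 7.14 in soy, were also below 7.47. It was lowest in casein 6, at 6.09, and from 6.72 to 7.28 in the other arrays. Dtx1, a Deltex ubiquitin ligase that acts on Notch receptors, was at 0.46 ± 0.26 (SE), also with casein 6 lowest, at 6.36. The casein mean of Dtx1, 7.29, was below 7.47 and its soy mean of 7.76 above. Jag2, the second Jagged ligand, was at -0.32 ± 0.21 (SE), with soy 155 and soy 159 at 6.79 and 6.66 and the other 8 arrays between 7.28 and 7.69. Its soy mean of 7.19 was below 7.47 and its casein mean of 7.51 just above. Rbpj itself, named for its place in the pathway after its value was seen, was at -0.03 ± 0.14 (SE), with an interval of -0.34 to 0.29.

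**Figure D4:**
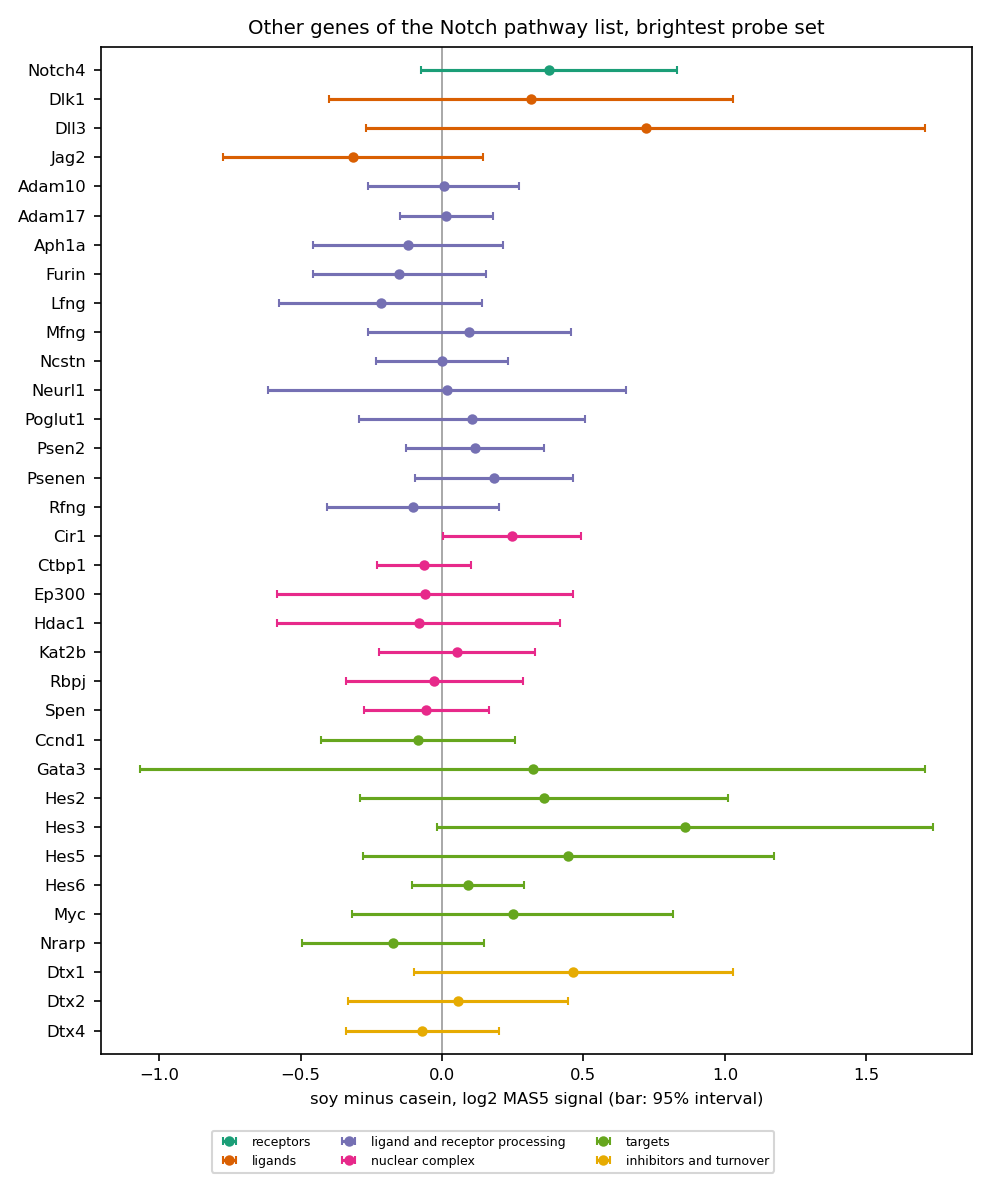
Difference between diets (soy minus casein, log2 MAS5 signal) for the 34 other pathway genes at their brightest probe set, coloured by role, with 95% intervals from limma. All intervals but that of Cir1, from 0.003 to 0.49, include 0, and the widest belong to Gata3, Dll3 and Hes3.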

How the data were processed

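Gene expression was measured on 1-colour oligonucleotide arrays, 1 for each of 10 samples, 5 per diet. The authors deposited a linear intensity for every probe set, computed with MAS5 according to the submitters' processing notes, with version and settings not given in the sources used here. The 2% trimmed mean was 500.1 on every array, so the deposited scaling was kept.

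Signals below 1 were set to 1, which applied to 261 values, and log2 was taken. All 15866 probe sets other than 57 controls were fitted without a brightness filter in limma 3.58.1 (R 4.3.3; lmFit, then eBayes with a trend on intensity). Two-sided p-values were adjusted by Benjamini and Hochberg's method over all of them, with a threshold of 0.05. The annotation named 1 gene for 12783, several for 312 and none for 2771. RefSeq (GRCr8) gave the promoters. A gene's brightest probe set stood for it in counts. The number of arrays limits the precision. The diets share no replicate number, and the labels give no batch.

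Named were all members, up to 6 other pathway genes of smallest p, and the 2 genes most like each member that reached the 40th percentile of 7.47. Rbpj, Hes5, Gata3, the other genes lowest in casein 6 and single cell type markers were named outside this rule. The members and lists were chosen with earlier results of these data known. The fit was tested on simulated data. Alternatives were other scaling, filter, offset and variance settings, array weights, covariates and arrays left out.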

Additional observations from a re-analysis of the deposited data

Results flagged for a closer look

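The 9 probe sets gave 18 sets of 5 arrays, each within 1 diet. In 3 of them, 1 array's distance to its nearest neighbour was over 0.71 of the whole range. About 1 in 20 sets would do so if values were independent and normally spread. The 18 sets share arrays and the rate over all probe sets was not computed, so no excess among the members can be claimed. Casein 6, the array in the Notch1 and Maml1 cases below, was lowest in 16.7% of all probe sets. For Dll1, casein 18 was at 5.99 on the log2 scale, 1.39 above the next casein array. For the second Notch1 probe set, casein 6 was at 8.21, 0.45 below the next casein array. For Maml1, casein 6 was at 7.77, 0.61 below the next casein array.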

How the results depend on the processing

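No member passed an adjusted p of 0.05 under any alternative run, where the smallest was 0.606, and 0 probe sets passed in any. At an unadjusted p under 0.05 there were 6 of the 187 member values, 4 of Maml1, 1 of the second Notch1 probe set and 1 of Numb. In the settings that gave them, 937 to 1266 of all 15866 probe sets were under 0.05 unadjusted. The 187 values are refits of the same 9 probe sets on shared arrays, so they are not independent. The count at an unadjusted p under 0.05 was 843, 433 of 9520 with the filter at the 40th percentile, where fewer were tested, and 602 to 1266 when 1 array was left out, with 1266 without casein 6. The Dll1, Maml1 and Numb values kept their sign in every alternative run, and in all 154 of 187 member values kept theirs and 33 did not. Under quantile normalization the sign turned for Notch2 (-0.090). Median centring turned Notch2 (-0.021) and Hes1 (-0.015), and log2 of the signal plus 16 turned Notch2 (-0.014). Array weights turned Jag1 (-0.049), and the actin ratio as a covariate did too (-0.064). With the muscle and lymphocyte means as covariates the values were -0.016 and -0.0064 for the first and second Notch1 probe sets, -0.15 for Notch2, -0.074 for Notch3 and -0.21 for Hes1. The luminal mean as a covariate turned Notch2 (-0.015), and leaving out both casein 6 and soy 149 turned Jag1 (-0.12). Without the 4 muscle-rich arrays, a setting added after seeing the data, the values were -0.16 and -0.32 for Notch1, -0.088 for Notch2, -0.13 for Notch3, -0.049 for Jag1 and -0.10 for Hes1. Leaving out 1 array gave 0.024 to 0.22 for the first Notch1 probe set, -0.048 to 0.22 for the second, -0.29 to 0.15 for Notch2, 0.019 to 0.22 for Notch3, -0.13 to 0.17 for Jag1, -0.50 to -0.048 for Dll1, -0.10 to 0.11 for Hes1, -0.41 to -0.17 for Maml1, 0.13 to 0.27 for Numb. The cause of these shifts was not tested. Under the filter Notch2 and Dll1 had no value, being too dim. No paired analysis was possible because the diets share no replicate number. Without detection calls, signal near background could not be told from none.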

Other observations

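Casein 6 was the lowest of the 10 arrays for 12 of the 34 other pathway genes (Cir1, Dll3, Dtx1, Ep300, Gata3, Hdac1, Hes6, Mfng, Myc, Notch4, Poglut1 and Spen), against 16.7% of all probe sets. Casein 6 also had the highest skeletal muscle mean, 13.11, and the lowest lymphocyte mean, 6.19. Soy 149 was close to it in both, at 12.70 and 6.23. It was the lowest array for 2 of the 34 genes, against 14.2% of all probe sets. Casein 20 was the lowest for 7 of the 34, against 6.2% of all probe sets. Its skeletal muscle mean was low, 6.11, and its lymphocyte mean was 9.365. Whether tissue makeup bears on these counts was not tested. The luminal transcription factor Gata3 was at 4.79 in casein 6 and at 8.70 in soy 147, and its log2 difference between diets was 0.32 ± 0.63 (SE).

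Hes5, a Hes repressor named here after its values were seen, had its 3 highest arrays in soy, with 9.21 in soy 155, 8.85 in soy 157 and 8.63 in soy 159. The lowest and the third lowest were soy as well, with 7.38 in soy 147 and 7.67 in soy 149, and the casein arrays lay between 7.39 and 8.18. Its log2 difference was 0.45 ± 0.33 (SE) at this probe set (limma, adjusted p = 0.879) and -0.05 at the other.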
